A study of Saccharomyces cerevisiae with 12 samples.

Results

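Snf1 is the yeast AMP-activated protein kinase, and the 10 genes described here encode its subunits, the kinases that switch it on and the phosphatase that switches it off. They were chosen by name, as SNF1, SNF4, SIP1, SIP2, GAL83, SAK1, TOS3, GLC7, REG1 and REG2, and all 10 are among the 5769 genes with values on every array. Transcript levels were read in Saccharomyces cerevisiae Y55 and in mutants of it named fhf1, fhf2 and fhf3, which arose under UV light and which the labels describe as fermenting maltose fast. All 4 strains carry the labelled background JT20150, MAT-alpha MAL1 SUC1. Each strain was grown in 3 separate cultures of 200 mL rich medium with 20% maltose at 22 °C, started from cells grown for 72 h on glucose and sampled on day 2. Each mutant is a single strain, so an effect of the mutation behind its phenotype cannot be told apart from that of other changes UV light may have left. Strain also cannot be told apart from the stage that a culture had reached on day 2.

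When glucose is plentiful, the phosphatase Glc7 with its partner Reg1 keeps Snf1 dephosphorylated and inactive. When glucose runs low, the kinases Sak1, Tos3 and Elm1 phosphorylate Snf1, which then releases genes for other carbon sources from repression. The active complex holds the catalytic subunit Snf1, the regulatory subunit Snf4 and one of the beta subunits Sip1, Sip2 or Gal83, which differ in where they place the kinase in the cell. Arrays measure transcripts, and neither the phosphorylation nor the activity of Snf1 was measured.

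The values are log2 signals from 1-colour arrays that carry 8 probes for each gene of the S288C genome, so a Y55 sequence that differs from a probe can lower its signal. The labelled cDNA was double-stranded, and signal from a gene and from an antisense transcript cannot be told apart. Array medians lay between 12.09 and 12.98, and without centring the median gene stood at 0.05 in fhf1, 0.10 in fhf2 and -0.28 in fhf3 relative to wild type (log2). Each array was therefore centred, and a log2 fold change below is relative to the median gene, with its standard error (SE) and the Benjamini-Hochberg adjusted p of a limma fit over all 5769 genes and 12 arrays. "Rose" and "fell" mean an adjusted p under 0.05. The 4 genes specific to alpha cells had mean signals between 11.52 and 14.41, against 9.35 to 12.33 for the 7 specific to a cells. Of the genes specific to a cells, 5 fell and 0 rose in fhf3, where 23.6% of all genes fell. Of those specific to alpha cells, 2 rose and 0 fell there, where 21.8% of all genes rose. In fhf1, 1 alpha-specific gene fell, and 1 a-specific gene rose and 1 fell, where 16.7% of all genes passed. In fhf2, 1 a-specific gene fell and 0 alpha-specific genes passed, where 6.45% of all genes did. The part of these genes in the results below was not tested. Of the 3 maltose locus genes that were followed, MAL12 had group means between 14.33 and 14.66. MAL11 and MAL13 were near the lowest signals, between 7.61 and 8.03. Whether their probes read the maltose genes that Y55 carries, or other copies, was not tested. A lower signal in every cell and a lower share of cells with the transcript cannot be told apart in such cultures.

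Of the 10 genes, 3 passed the test in a mutant against wild type. TOS3, which encodes an activating kinase, rose in fhf1, fhf2 and fhf3. SIP2 and REG2 fell in fhf3. In fhf1 1 of the 10 genes passed, against 16.7% of all genes, made up of 5.55% that rose and 11.2% that fell. In fhf2 1 of 10 passed, against 6.45% of all genes, made up of 1.61% that rose and 4.84% that fell. In fhf3 3 of 10 passed, against 45.4% of all genes, with 21.8% risen and 23.6% fallen. The median log2 fold change of the 10 genes was 0.08 in fhf1, 0.11 in fhf2 and -0.10 in fhf3, where the median over all genes was 0.00, 0.01 and 0.03.

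**Figure D1:**
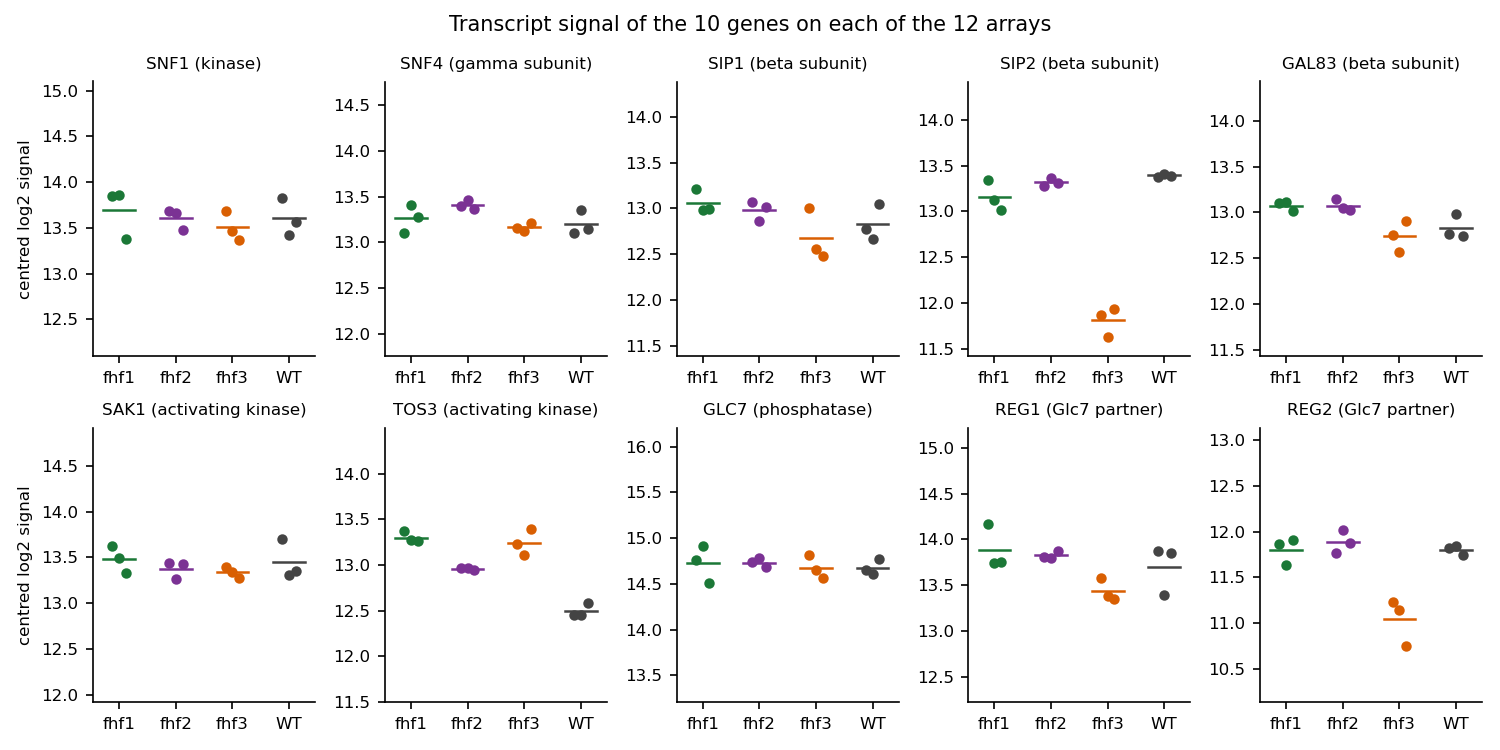
Centred log2 signal of each gene on the 12 arrays, with 1 point per culture and a bar at the mean of the 3 cultures of fhf1, fhf2, fhf3 and wild type (WT). Every panel spans 3 log2 units. The wild-type points of TOS3 lie below those of all mutants, and the fhf3 points of SIP2 and REG2 lie below those of the other strains.

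The catalytic subunit gene SNF1 (YDR477W) had signals of 13.85, 13.86 and 13.38 in fhf1, 13.68, 13.66 and 13.48 in fhf2 and 13.68, 13.47 and 13.37 in fhf3, against 13.83, 13.42 and 13.56 in wild type. All groups overlapped, and the fhf1 cultures alone spanned nearly the whole range of the 12 arrays. The log2 fold change was 0.09 in fhf1 (95% interval -0.22 to 0.40), 0.00 in fhf2 (-0.31 to 0.31) and -0.09 in fhf3 (-0.40 to 0.22). No difference in SNF1 was detectable with 3 cultures per strain, within these intervals.

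SNF4 (YGL115W) encodes the gamma subunit, which relieves the autoinhibition of Snf1. Its signals were 13.10, 13.41 and 13.28 in fhf1, 13.40, 13.46 and 13.37 in fhf2 and 13.16, 13.13 and 13.21 in fhf3, against 13.10, 13.36 and 13.15 in wild type. The fhf2 arrays lay above the wild-type ones, by 0.21 on the log2 scale (SE 0.114), but SNF4 did not pass (adjusted p = 0.344). Before centring these arrays overlapped with wild type. The fold change was 0.06 in fhf1 and -0.04 in fhf3 (95% interval -0.28 to 0.20).

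Of the beta subunit genes, SIP2 passed against wild type while GAL83 and SIP1 did not. SIP2 (YGL208W), whose product keeps the kinase in the cytoplasm, had signals of 13.34, 13.12 and 13.02 in fhf1, 13.28, 13.37 and 13.31 in fhf2 and 11.87, 11.63 and 11.93 in fhf3. In wild type they were 13.38, 13.41 and 13.39. No fhf3 array came near another strain. SIP2 fell in fhf3 to 0.334 of the wild-type level (95% interval 0.282 to 0.396), a log2 fold change of -1.58 (SE 0.117, adjusted p = 5.51e-09). By size it ranked 144 among 5769 genes ordered from the strongest fall. The authors' deposited table, which tests for a change beyond 2-fold without centring, gives -1.90 with an adjusted p of 0.0155. That test called 1 of the 10 genes in fhf3, against 2.94% of all genes, and 0 in fhf1 and fhf2, against 0.190% and 0.156%. With moderated limma against no change, 2 of the 10 were under an unadjusted p of 0.05 in each of these mutants, as were 29.6% of all genes in fhf1 and 18.8% in fhf2.

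In the other mutants SIP2 stayed closer to wild type. Its log2 fold change was -0.24 in fhf1 (95% interval -0.48 to 0.01, adjusted p = 0.187) and -0.08 in fhf2 (-0.32 to 0.17, adjusted p = 0.80). After centring, all fhf1 and fhf2 arrays were under the lowest wild-type array, in fhf2 by very little (highest 13.37, against 13.38). The wild-type spread was narrow (13.39 ± 0.02, SD, n = 3). Before centring both mutants overlapped with wild type, with log2 fold changes of -0.19 in fhf1 and 0.02 in fhf2.

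GAL83 (YER027C) encodes the beta subunit that takes the kinase into the nucleus. Its signals were 13.10, 13.11 and 13.01 in fhf1, 13.15, 13.05 and 13.02 in fhf2 and 12.75, 12.57 and 12.91 in fhf3, against 12.76, 12.98 and 12.74 in wild type. The fhf1 and fhf2 arrays lay just above the wild-type range and the fhf3 arrays overlapped with it. Before centring the fhf1 and fhf2 arrays overlapped with wild type too. With log2 fold changes of 0.25 in fhf1 (adjusted p = 0.165), 0.25 in fhf2 (0.255) and -0.08 in fhf3 (0.595), GAL83 did not pass in any mutant.

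The vacuolar beta subunit gene SIP1 (YDR422C) had signals of 13.21, 12.98 and 12.99 in fhf1, 13.07, 12.86 and 13.02 in fhf2 and 13.00, 12.56 and 12.48 in fhf3, against 12.78, 12.67 and 13.05 in wild type. All mutants overlapped with wild type. Its log2 fold changes were 0.23, 0.15 and -0.15 in fhf1, fhf2 and fhf3, with adjusted p of 0.317, 0.647 and 0.396.

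Of the activating kinases, TOS3 (YGL179C) moved and SAK1 did not pass. TOS3 had signals of 13.37, 13.27 and 13.26 in fhf1, 12.97, 12.97 and 12.94 in fhf2 and 13.23, 13.11 and 13.39 in fhf3, against 12.45, 12.45 and 12.58 in wild type. Every mutant array was above every wild-type array. TOS3 rose 1.74-fold in fhf1 (95% interval 1.49 to 2.04, log2 fold change 0.80, SE 0.108, adjusted p = 5.72e-05). In fhf2 it rose 1.38-fold (1.18 to 1.62, log2 fold change 0.47, adjusted p = 0.0132), and in fhf3 1.68-fold (1.43 to 1.97, log2 fold change 0.75, adjusted p = 2.49e-05). Ordered from the strongest rise among 5769 genes, TOS3 ranked 37 in fhf1, 101 in fhf2 and 253 in fhf3. The 3 comparisons share the same wild-type arrays.

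The rise of TOS3 depends on centring. With the values as deposited its log2 fold change was 0.85 in fhf1 (adjusted p = 0.0531), 0.56 in fhf2 (0.829) and 0.43 in fhf3 (0.247), positive in each. The call in fhf2 was also lost without any single fhf2 culture, at 0.46 without replicate 1 (adjusted p = 0.052), 0.46 without replicate 2 (0.0551) and 0.48 without replicate 3 (0.0505). It remained called in fhf1 and fhf3 without any single culture.

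SAK1 (YER129W), which encodes the main activating kinase of Snf1, had signals of 13.62, 13.49 and 13.33 in fhf1, 13.44, 13.26 and 13.43 in fhf2 and 13.39, 13.34 and 13.28 in fhf3, against 13.70, 13.31 and 13.35 in wild type. The strains overlapped throughout. Its log2 fold changes were 0.03 (95% interval -0.23 to 0.29), -0.08 (-0.34 to 0.19) and -0.12 (-0.38 to 0.15) in fhf1, fhf2 and fhf3. ELM1, the gene of the remaining activating kinase, did not pass either, at -0.19, -0.20 and -0.33 in these mutants (adjusted p = 0.432, 0.531 and 0.0884).

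On the phosphatase side the partner REG2 moved. REG2 (YBR050C), a relative of REG1 that can also bring Glc7 to Snf1, had signals of 11.86, 11.63 and 11.91 in fhf1, 11.77, 12.02 and 11.88 in fhf2 and 11.23, 11.14 and 10.75 in fhf3, against 11.82, 11.84 and 11.74 in wild type. All fhf3 arrays were below all others, while fhf1 and fhf2 overlapped with wild type. REG2 fell in fhf3 to 0.590 of the wild-type level (95% interval 0.486 to 0.717, log2 fold change -0.76, SE 0.133, adjusted p = 0.000174). The log2 fold change was 0.00 in fhf1 and 0.09 in fhf2. In the authors' deposited table REG2 stood at -1.08 in fhf3 and did not pass the 2-fold test.

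REG1 (YDR028C), which directs Glc7 to Snf1, had signals of 14.17, 13.74 and 13.75 in fhf1, 13.81, 13.80 and 13.87 in fhf2 and 13.58, 13.38 and 13.35 in fhf3, against 13.87, 13.39 and 13.85 in wild type. The second wild-type culture lay with the fhf3 arrays and apart from the other wild-type ones. The log2 fold change in fhf3 was -0.27 (95% interval -0.57 to 0.04, adjusted p = 0.141). Without wild-type replicate 2 it was -0.42 and passed (adjusted p = 0.0228). In fhf1 and fhf2 it was 0.18 and 0.12 (adjusted p = 0.428 and 0.727).

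GLC7 (YER133W), the essential catalytic subunit of protein phosphatase 1, had signals of 14.76, 14.92 and 14.51 in fhf1, 14.74, 14.78 and 14.68 in fhf2 and 14.82, 14.65 and 14.56 in fhf3, against 14.65, 14.61 and 14.77 in wild type. All groups overlapped. The log2 fold changes were 0.05 (95% interval -0.21 to 0.31), 0.06 (-0.20 to 0.31) and 0.00 (-0.26 to 0.26) in fhf1, fhf2 and fhf3.

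**Figure D2:**
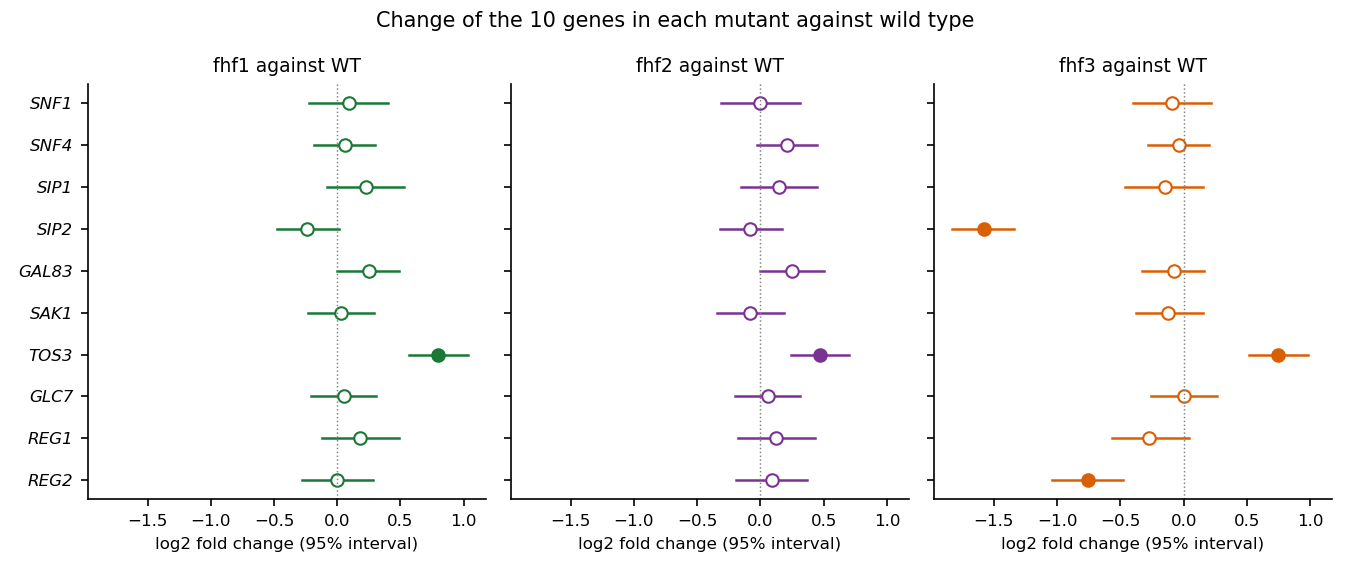
Log2 fold change of each gene in fhf1, fhf2 and fhf3 against wild type, with the 95% interval from the limma fit. Filled points have an adjusted p under 0.05 and open points do not. TOS3 is filled in each panel at 0.80, 0.47 and 0.75, and SIP2 and REG2 are filled in fhf3 at -1.58 and -0.76.

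SIP2 and GAL83, REG2 and REG1, and TOS3 and SAK1 are pairs of related genes, so each pair was also compared within arrays, where a shift common to an array drops out. The difference of log2 signals was taken relative to its wild-type mean. For SIP2 minus GAL83 it was -1.44, -1.51 and -1.55 in fhf3, against 0.05, -0.13 and 0.08 in wild type. The mean was -0.48 ± 0.13 in fhf1, -0.33 ± 0.10 in fhf2 and -1.5 ± 0.06 in fhf3, against 0.00 ± 0.12 in wild type (SD, n = 3 each). None of the mutants overlapped with wild type in this measure. The exact two-sided permutation p was 0.1 in each mutant, the smallest that 3 against 3 arrays allow.

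TOS3 minus SAK1 was 0.70, 0.74 and 0.88 in fhf1, 0.49, 0.67 and 0.47 in fhf2 and 0.80, 0.72 and 1.07 in fhf3, against -0.28, 0.10 and 0.19 in wild type. All mutant arrays were above the wild-type ones (exact permutation p = 0.1 in each mutant, again the smallest possible). REG2 minus REG1 was -0.44, -0.34 and -0.70 in fhf3, against -0.15, 0.35 and -0.21 in wild type. These did not overlap, but the wild-type spread of 0.31 (SD) was large beside the mean difference of -0.49 (exact permutation p = 0.1). In fhf1 and fhf2 the REG2 minus REG1 means of -0.18 and -0.03 overlapped with wild type (exact permutation p = 0.5 and 1). This pair leans on wild-type replicate 2, without which the means were -0.01 in fhf1, 0.15 in fhf2 and -0.32 in fhf3.

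**Figure D3:**
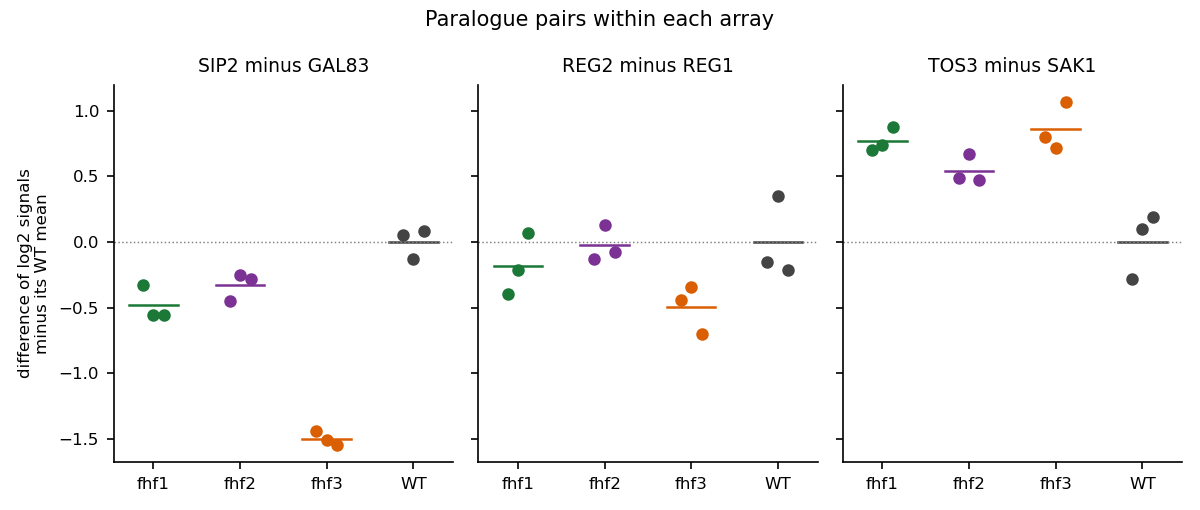
Difference between the log2 signals of SIP2 and GAL83, REG2 and REG1, and TOS3 and SAK1 within each array, minus its wild-type mean, for fhf1, fhf2, fhf3 and WT. Points are cultures and bars are means of 3. The fhf3 points of SIP2 minus GAL83 lie between -1.55 and -1.44, and all mutant points of TOS3 minus SAK1 lie above the wild-type ones.

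The mutants were also set against each other. In fhf3 against fhf1, 5 of the 10 genes passed and all 5 were lower in fhf3, where 49.0% of all genes passed in either direction and 25.3% were lower. In fhf3 against fhf2, 5 of 10 passed, 4 lower and 1 higher, where 46.2% of all genes passed and 1394 of 5769 were lower. Taken in either direction, neither count stands apart from that over all genes. The share of lower calls was larger among the 10 genes than among all genes, which was not tested. In fhf1 against fhf2, 0 of 10 passed with limma, where 1.77% of all genes did. There 1 gene, TOS3, was under an unadjusted p of 0.05 (0.34 higher in fhf1, adjusted p = 0.137), as were 14.2% of all genes.

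SIP2 was lower in fhf3 by -1.35 against fhf1 (SE 0.117, adjusted p = 6.31e-08) and by -1.51 against fhf2 (adjusted p = 1.85e-08), as log2 fold changes. REG2 was lower in fhf3 with log2 fold changes of -0.76 against fhf1 (adjusted p = 0.000155) and -0.85 against fhf2 (adjusted p = 5.74e-05). Both stayed called without any single culture of the strains compared. For TOS3 the order of means was 13.30 in fhf1, 13.24 in fhf3, 12.96 in fhf2 and 12.49 in wild type. The neighbours fhf1 and fhf3 did not differ beyond their spread (-0.05 in fhf3 against fhf1, 95% interval -0.28 to 0.17). In fhf3 against fhf2 TOS3 passed at 0.28 (adjusted p = 0.0419), but this call was lost without any 1 of the fhf2 cultures and without fhf3 replicate 1 or 3. Its log2 fold change there ranged from 0.21 to 0.35 over all left-out cultures. With the values as deposited it was -0.13.

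GAL83 and REG1 were also lower in fhf3 than in the other mutants, by less. GAL83 had a log2 fold change of -0.33 against fhf1 (adjusted p = 0.0270) and -0.33 against fhf2 (0.0273). REG1 had -0.45 against fhf1 (0.0163) and -0.39 against fhf2 (0.0355). SIP1 passed against fhf1 at -0.38 (0.0364) and missed the threshold against fhf2 at -0.30 (0.0917). These calls were near the threshold and were lost on leaving out cultures, while the log2 fold changes stayed below 0. Over the left-out cultures GAL83 ranged from -0.42 to -0.25 against either mutant, and REG1 from -0.52 to -0.31 against fhf1 and from -0.46 to -0.35 against fhf2. SIP1 ranged from -0.54 to -0.29 against fhf1. In fhf3 against fhf1, leaving out fhf1 replicate 1 or fhf3 replicate 2 left 2 called genes, SIP2 and REG2, in place of 5. Against fhf2, 2 were left without fhf2 replicate 1 or 2. Without fhf2 replicate 3, or fhf3 replicate 2 or 3, 3 were left there, and 3 were left against fhf1 without fhf3 replicate 3.

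**Figure D4:**
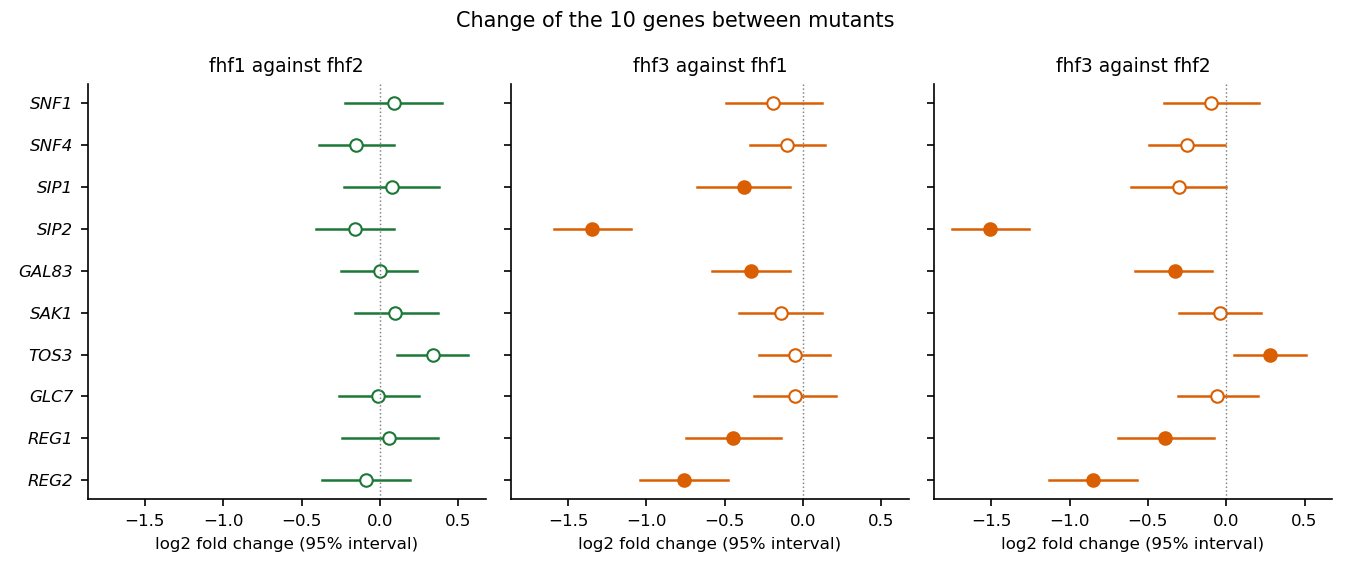
Log2 fold change of each gene between mutants, named strain first, with the 95% interval from the limma fit and filled points for an adjusted p under 0.05. No point is filled in fhf1 against fhf2. SIP2 and REG2 lie farthest below 0 in both comparisons of fhf3.

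The level pattern over the 12 arrays was set against all other 5768 genes by Pearson's r, as a description. SNF1, with little difference between strains, was most like NSE4 (0.944), a gene of the Smc5-Smc6 complex, followed by YLR154C-G (0.876), the subtelomeric YEL077C (0.871) and YEL076C (0.867), and SLX5 (0.861), a gene of a SUMO-directed ubiquitin ligase. Subtelomeric genes have near-identical copies that probes may not tell apart. With an F of 0.535 for SNF1, its likenesses rest largely on scatter between cultures of the same strain. In the fhf1 cultures SNF1 stood at 0.24, 0.26 and -0.22 from its wild-type mean, and YLR154C-G at 1.04, 0.58 and -1.07. SIP2, which had the largest F over the 4 groups among the 10 genes, was most like the xylulokinase gene XKS1 (0.994), RNR3 (0.989), a minor subunit gene of ribonucleotide reductase, the meiotic regulator gene AMA1 (0.988), YPL247C (0.987) and GND2 (0.987), a minor 6-phosphogluconate dehydrogenase gene. In these the log2 fold change in fhf3 was -1.5 for XKS1, -2.72 for RNR3, -2.74 for AMA1, -1.73 for YPL247C and -3.26 for GND2. In SIP2 and each of these genes every fhf3 array lay below all arrays of the other strains, so these likenesses rest largely on fhf3. Over the other 9 arrays r was 0.902 for XKS1, 0.760 for RNR3, 0.765 for AMA1, 0.801 for YPL247C and 0.530 for GND2.

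Further genes of the pathway were followed as lists. Of 7 genes for ELM1, sensors and binding partners of Snf1, 0 rose and 1 fell in fhf1, 0 and 1 in fhf2, and 2 rose and 2 fell in fhf3. Any such count is to be read beside the share of all genes that passed, 16.7%, 6.45% and 45.4% in fhf1, fhf2 and fhf3. HXK2, which encodes the hexokinase that acts in glucose repression, averaged 11.46 in the fhf1 cultures, 12.30 in those of fhf2 and 14.47 in those of fhf3, against 13.08 in wild type. It fell in fhf1 (-1.62, adjusted p = 1.65e-06) and fhf2 (-0.78, adjusted p = 0.00531) and rose in fhf3 (1.39, adjusted p = 1.68e-06), keeping these directions under every scaling while the fhf2 call was lost without centring. STD1, whose product binds Snf1, rose in fhf3 (0.56, adjusted p = 0.00128). The glucose sensor gene SNF3 and SIP5, which encodes a partner of Snf1 and of Reg1, fell there at -0.53 and -0.50. The call of STD1 was lost without centring, where 1 gene of this list rose and 2 fell in fhf3. By quantile and by cyclic loess scaling 3 rose and 3 fell there, and 1 rose and 1 fell in fhf2.

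Of 15 transcription factors and other targets downstream of Snf1, 0 rose and 2 fell in fhf1, 0 and 3 in fhf2, and 1 and 6 in fhf3, with list medians of 0.00, -0.06 and -0.11, of which that in fhf1 was 0.09 by quantile scaling, that in fhf2 0.04 without centring, and that in fhf3 -0.43 without centring and -0.01 by quantile scaling. In fhf3 these 7 of 15 are near the 45.4% of all genes that passed. The repressor gene MIG1, whose product Snf1 phosphorylates, fell in fhf1 at -1.38 (adjusted p = 1.12e-06), and SIP4, an activator gene of gluconeogenesis, at -0.82. In fhf2 ADR1 and CAT8, activator genes for non-fermentable carbon, fell at -0.63 each, and SIP4 fell at -0.67 with an adjusted p just under the threshold. In fhf3 ADR1, CAT8, SIP4 and RDS2 fell at -1.93, -1.95, -1.14 and -0.77. The fhf2 calls of this list became 0 without centring, and 2 fell by quantile and by cyclic loess scaling. In fhf1 the falls numbered 1 without centring, 1 by quantile scaling and 2 with cyclic loess.

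Of 18 further regulatory subunits and partners of Glc7, 10 fell and 1 rose in fhf3, with a median of -0.48, against 1 fallen in fhf1 and 0 called in fhf2 with limma. Of all genes 23.6% fell in fhf3, 11.2% in fhf1 and 4.84% in fhf2. The log2 fold changes in fhf3 were -1.78 for GIP2 and -1.64 for PIG2, which act in glycogen metabolism, -0.94 for the meiotic gene RED1 and -0.96 for AFR1, a gene of the mating response. RED1 was the gene called in fhf1, at -0.35 (adjusted p = 0.0443), and the call was lost without centring and under quantile and cyclic loess scaling. The falls in fhf3 numbered 10 under each of these scalings too.

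Of 20 glucose-repressed genes that need Snf1, 8 fell in fhf1, 7 fell and 1 rose in fhf2, and 13 fell and 2 rose in fhf3, with medians of -0.18, -0.26 and -1.14. Over all genes, 11.2% fell in fhf1, 4.84% in fhf2 and 23.6% in fhf3. This list was chosen with falls of some of its genes in these data already known and is no independent evidence of direction. Its strongest calls included SFC1, a mitochondrial succinate and fumarate carrier gene, at -2.37 in fhf1, -1.76 in fhf2 and -2.53 in fhf3. PCK1, which encodes a key enzyme of gluconeogenesis, stood at -1.46, -1.59 and -2.48, and the malate synthase gene MLS1 at -1.06, -1.02 and -2.65, all called. Other strong falls were those of the peroxisomal catalase gene CTA1 in fhf1 (-0.77), of MDH2, the cytosolic malate dehydrogenase gene, in fhf2 (-0.81) and fhf3 (-2.26), and of the carnitine carrier gene CRC1 in fhf3 (-2.93). SUC2, known as the invertase gene under Mig1 repression, was named after its values were seen. Its signal moved against the list, at 0.45 in fhf2 (adjusted p = 0.0400) and 0.90 in fhf3 (adjusted p = 1.85e-05), and was 0.01 in fhf1. The strains are labelled SUC1, and whether the SUC2 probes also read a SUC1 transcript was not tested. Without centring neither rise of SUC2 was called, nor was that in fhf2 with cyclic loess, and without centring the falls numbered 3, 2 and 14.

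**Figure D5:**
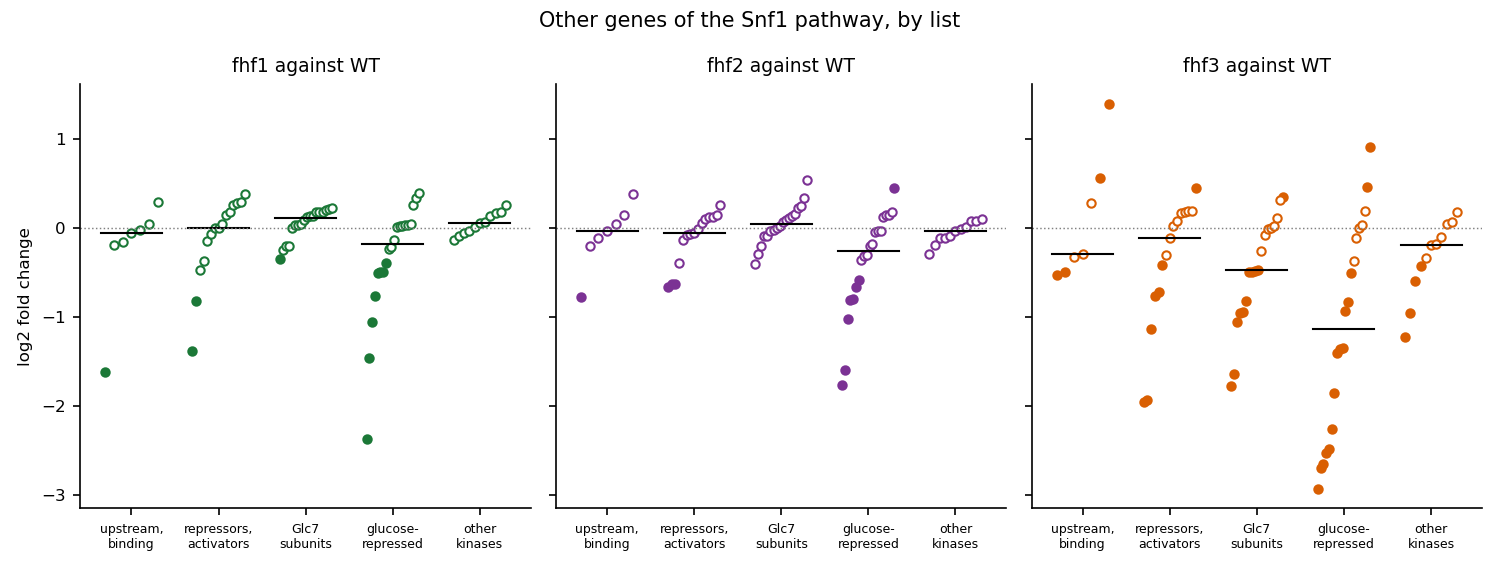
Log2 fold change against wild type of the other genes of the pathway in 5 lists, for fhf1, fhf2 and fhf3. Each point is a gene, filled where its adjusted p is under 0.05, and the black bar is the list's median. The glucose-repressed list has the lowest median in each panel, and HXK2 is the highest point of the first list in fhf3 and its lowest in fhf1 and fhf2.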

How the data were processed

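The authors deposited a table of log2 signals per gene for the 12 arrays and a table of comparisons with log2 fold changes, t statistics (a score here), p-values and adjusted p-values. The submitters' processing notes name limma. For scanner software, background correction, normalization and probe summary, the settings were not given in the sources used here. Group means of the signals gave the deposited fold changes within 5e-08. Of 5872 rows, 103 had no values and 5769 were tested. Per the labels each sample was hybridised in triplicate, and it is not settled if a column averages repeats.

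From each array the median, over all genes, of its difference from the gene's mean over the 12 arrays was subtracted. With limma 3.58.1 in R 4.3.3, 1 fit of 4 groups with moderated variance was made, two-sided against no change, with Benjamini-Hochberg adjustment over all genes within each of 6 comparisons. The median SE of a fold change was 0.131 with centring and 0.264 without. The fit was tested on simulated data with changes in fhf3 only, and in far fewer genes than passed there in the real data.

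The 10 genes and the lists were chosen with earlier results of these data known. All 10 are named, with up to 4 called genes per list and comparison by smallest p, and the 5 genes most like SNF1 and most like the gene with the largest F. Symbols come from an R64 table that holds 5763 of the 5769 systematic names. Alternatives were other scalings, other variance models, no dim genes, 2 groups only, a replicate block, each culture left out, and the deposited test. Cyclic loess was chosen after seeing the data. Array number limits precision. A result that the naming rule would have given is not reported here.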

Additional observations from a re-analysis of the deposited data

How the results depend on the processing

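The falls of SIP2 and REG2 in fhf3 and the rise of TOS3 in fhf1 and fhf3 kept their direction, and their call under every other scaling, variance model, block and left-out culture, except where stated here. REG2 lies among the dimmest 25% of genes and has no value without those. Without centring the count of called genes became 0 in fhf1 and 0 in fhf2 against wild type, the call of TOS3 in fhf3 was lost (0.43, adjusted p = 0.247), and TOS3 in fhf3 against fhf2 turned to -0.13. The authors' deposited 2-fold test called 0, 0 and 1 of the 10 in fhf1, fhf2 and fhf3. For fhf3 against fhf1 the count of 5 was 3 with cyclic loess and 3 with only the 2 groups fitted. Leaving out single cultures gave counts of 1 to 1 in fhf1, 0 to 1 in fhf2 and 3 to 4 in fhf3 against wild type, 2 to 5 in fhf3 against fhf1, 2 to 4 in fhf3 against fhf2 and 0 in fhf1 against fhf2. The cause of these differences was not tested.

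Over all genes, calls against wild type numbered 965, 372 and 2617 in fhf1, fhf2 and fhf3, and 154, 59 and 1431 without centring. In fhf1 against fhf2 they were 102, and 18 without centring. Calls that were higher made up 33.2%, 25% and 48.0% in fhf1, fhf2 and fhf3 against wild type, 46.5%, 34.8% and 56.4% by quantile scaling and 22.1%, 22.0% and 7.97% without centring. With only the 2 groups fitted fhf1 had 509 calls, and with each gene's own variance fhf2 had 217.

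Cultures with the same replicate number deviated together in some pairs but not in all (r from -0.241 to 0.449, median 0.158, over 0.1 in 10 of 18). For pairs with different numbers the median r was -0.077, with 8 of 36 over 0.1. Of the 12 arrays, 7 correlated best with their own number. With the replicate number as a block, 1120, 468 and 2806 genes were called against wild type, and the counts among the 10 genes were 1, 1, 3, 0, 5 and 5 in the 6 comparisons, as without it.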

Other observations

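Kinases tied to Snf1 in other ways were followed as a list of 11 genes. None passed with limma in fhf1 or fhf2, and 4 fell and 0 rose in fhf3, with a median of -0.19, where 45.4% of all genes passed and 23.6% fell. By quantile scaling 3 fell and 1 rose in fhf3, and 1 rose in fhf1. BCY1, the gene of the regulatory subunit of protein kinase A, was among those that fell, at -0.60 (adjusted p = 0.00166). PSK1, the gene of a PAS domain kinase, stood at -0.43 (0.0363).

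Genes next to the 3 that passed against wild type were looked up after the values were seen. Over all genes 16.7% passed in fhf1, 6.45% in fhf2 and 45.4% in fhf3, and calls among neighbours are to be read beside these shares. A local effect was not tested. Beside REG2 on chromosome II, RFS1 fell in fhf3 at -0.78 (adjusted p = 2.31e-05) and YBR053C at -0.44 (0.0183), while REB1 on the other side was at 0.00. Beside TOS3 on chromosome VII, MPT5, an mRNA-binding protein gene on the opposite strand, stood at 0.43 in fhf1 (0.0486), 0.35 in fhf2 (0.185) and 0.47 in fhf3 (0.0138). ATG1, the neighbour on the other side, stood at 0.24, -0.02 and -0.41 in these mutants (0.328, 0.964 and 0.0399). The 4 nearest measured neighbours of SIP2 did not pass in fhf3 and lay between -0.01 and 0.18. The median over the 521 measured genes of chromosome VII was 0.01, 0.03 and 0.09 in fhf1, fhf2 and fhf3.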
